A study of Mus musculus with 13 samples.

Results

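The 50 genes described here act in mitosis and in the segregation of chromosomes. They were chosen by name, and each of the 50 names matched exactly 1 entry among the 57010 genes of both gene lists. The thymic data came from 2-month-old female C57BL/6N mice without treatment, with 2 mice and 4 thymic lobes for each of the 2 Parse split-pool kits, and with different mice for the WT and Mini kits. The lobes of a mouse share that mouse, and the cell tables do not say which lobes belong together, so p-values measure the spread between lobes. The WT kit also carried 16 tissue samples whose names begin with CVS_C, CVS_S or YD_C. The labels do not say what these names stand for, and the samples are described by their values only.

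The lobes of the WT kit held 4178 to 15077 cells and 30450786 to 124106974 unique molecular identifiers (UMIs). Those of the Mini kit held 4498 to 5426 cells and 28057164 to 33264104 UMIs. After quality control and removal of cells with markers of other lineages, 31868 WT and 15991 Mini thymocytes were scored. The members took 961520 UMIs in the 4 WT lobes and 465900 in the 4 Mini lobes. No full cell barcode was listed more than 1 time within a kit, while 19867 of 103602 well combinations of the WT kit recurred in more than 1 sublibrary and 460 of 20085 full barcodes of the Mini kit also occurred in the WT kit. WT lobe 1 held fewer cells in the G2/M class (4.73%) than the other WT lobes (7.25% to 7.64%). The main counts over the members and the pathway list in WT are given with and without WT lobe 1.

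As background, a dividing cell copies its chromosomes in S phase, and in mitosis condenses them, attaches them to the spindle through kinetochores and pulls the copies apart. Kinesins are motors that move along microtubules and build the spindle. Kinetochore and checkpoint proteins tie chromosomes to microtubules and hold back anaphase until all are attached. Condensins compact the chromosomes, and cyclins A and B switch on the kinase Cdk1 that drives entry into mitosis. In the thymus, immature thymocytes expand by division before and around the time they acquire Cd4 and Cd8, and later stages divide less.

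The promoters of the members are shown because the genes moved together in the cells described below, and because genes of late cell cycle are known to carry the letters TTTGAA (the core of the cell cycle genes homology region, bound by the DREAM and MuvB complexes) and CCAAT (bound by NF-Y). RefSeq promoters of 300 bases (250 before to 50 after the annotated start, build GRCm38.p6) were found for 41 of the 50 members, in 43 windows. No entry was found for Depdc1b, Cdc25c, Kif20a, Aurkb, Ccna2, Tpx2, Incenp, Pif1 and Smc4. On either strand, TTTGAA stood in 36 of the 43 windows (83.7%) and in 5878 of all 32851 windows (17.9%). CCAAT stood in 34 of the 43 (79.1%) and in 12289 of all windows (37.4%), and both stood in 30 of the 43 (69.8%) and in 6.95% of all. Neighbouring matches of the 2 motifs can share an end letter, and a match describes letters, not a bound site. The 120 bases before the annotated start follow for 6 members, 5′ to 3′ on the strand of the gene, with every match to either motif on either strand in capitals.
Cdk1, minus strand, chr10:69352913-69353032: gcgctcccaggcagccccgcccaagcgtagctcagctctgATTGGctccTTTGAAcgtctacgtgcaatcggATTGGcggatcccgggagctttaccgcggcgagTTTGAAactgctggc
Cdc20, minus strand, chr4:118437344-118437463: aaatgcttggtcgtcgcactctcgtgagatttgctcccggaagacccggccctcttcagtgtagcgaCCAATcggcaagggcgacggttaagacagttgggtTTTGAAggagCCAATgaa
Kif11, plus strand, chr19:37376262-37376381: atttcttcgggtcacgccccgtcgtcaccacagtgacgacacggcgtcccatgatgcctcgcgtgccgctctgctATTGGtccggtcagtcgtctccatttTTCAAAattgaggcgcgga
Top2a, minus strand, chr11:99024190-99024309: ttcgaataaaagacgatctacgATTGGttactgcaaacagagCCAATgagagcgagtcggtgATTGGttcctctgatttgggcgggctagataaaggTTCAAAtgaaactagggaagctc
Ccnf, minus strand, chr17:24251410-24251529: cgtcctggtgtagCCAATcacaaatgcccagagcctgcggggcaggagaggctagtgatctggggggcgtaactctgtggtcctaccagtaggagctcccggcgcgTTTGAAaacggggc
Ccnb1, minus strand, chr13:100786487-100786606: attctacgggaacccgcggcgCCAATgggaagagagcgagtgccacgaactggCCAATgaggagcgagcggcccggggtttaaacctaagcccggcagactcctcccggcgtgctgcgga
Cdk1, Cdc20, Kif11, Top2a and Ccnf hold both motifs in this stretch, whereas Ccnb1, which encodes cyclin B1, holds CCAAT in 2 places and no TTTGAA anywhere in its 300-base window. Within 50 bases of the annotated start on either side, a distance chosen after the matches were seen, TTTGAA stood in 31 of the 43 windows (72.1%) and in 4.94% of all.

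In whole lobes, the members together made up 0.523% to 0.668% of the UMIs outside ribosomal RNA in the WT kit and 0.567% to 0.751% in the Mini kit. Levels are given as CPM, UMIs per 1000000 UMIs outside ribosomal RNA. Mki67, the Ki-67 coat of mitotic chromosomes, measured 651, 867, 649 and 778 CPM in WT lobes 1 to 4. Kif20a, a motor of cytokinesis, measured 15.7, 12.8, 14.3 and 11.1 CPM in the same lobes. Levels of different genes can be compared only per length, and per kilobase of annotated exon (GENCODE M21) the WT means ran from 179 CPM for Smc4 to 3.11 CPM for Kif20a. Smc4 (chr3:69004738-69034623, plus strand), the ATPase subunit of condensin, had the highest level per exon kilobase and per gene kilobase in both kits, followed by Mki67 and Top2a. Across the 50 genes, the level in CPM rose with exon length (Spearman's rho = 0.62 in WT and 0.66 in Mini lobes), a description across genes that share libraries. Introns were not separated from exons in these counts, so the length that applies is not known.

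To ask where in the cycle the members are expressed, thymocytes were sorted into classes by 28 G2/M and 48 S genes that are not members. A score is the number of anchor UMIs per 10000 UMIs outside ribosomal RNA. Cells with a G2/M score of at least 25 and an S score under 40 formed the G2/M class, with 2296 WT and 984 Mini cells. Cells with an S score of at least 40 and a G2/M score under 25 formed the S class (3206 and 1344), and cells past both cuts formed the G2/M + S class (1887 and 1126). Anchor-low cells (18986 and 10499) had scores under 10 and 20. The anchors belong to the same cycle as the members, so the classes put a question of how closely and how strongly the members follow them. G2/M cells were deeper (median 5814 UMIs in WT) than anchor-low cells (2498), and 7.24% of WT cells lay within 20% of the G2/M cut.

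All 50 members were higher in G2/M cells than in anchor-low cells in both kits, where 23% of the 12993 genes tested in WT were called higher and 21.1% lower, and 20.9% and 17.8% of the 11297 in Mini (edgeR, adjusted p under 0.05). The median log2 fold change of the members was 4.58 in WT and 5.39 in Mini, against -0.01 and 0.00 over all genes tested. All 50 were also higher in G2/M than in S cells, with medians of 1.42 and 1.61 where 19.4% of 11537 genes were called higher and 19.8% lower in WT, and 16.5% and 17.4% of 10010 genes in Mini. Without WT lobe 1 the counts were 50 and 50 and the medians 4.36 and 1.37. Every member's 4 G2/M sums lay above its 4 S sums in each kit, which held for 5.45% of 9875 genes in WT and 7.77% of 9886 in Mini.

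**Figure D1:**
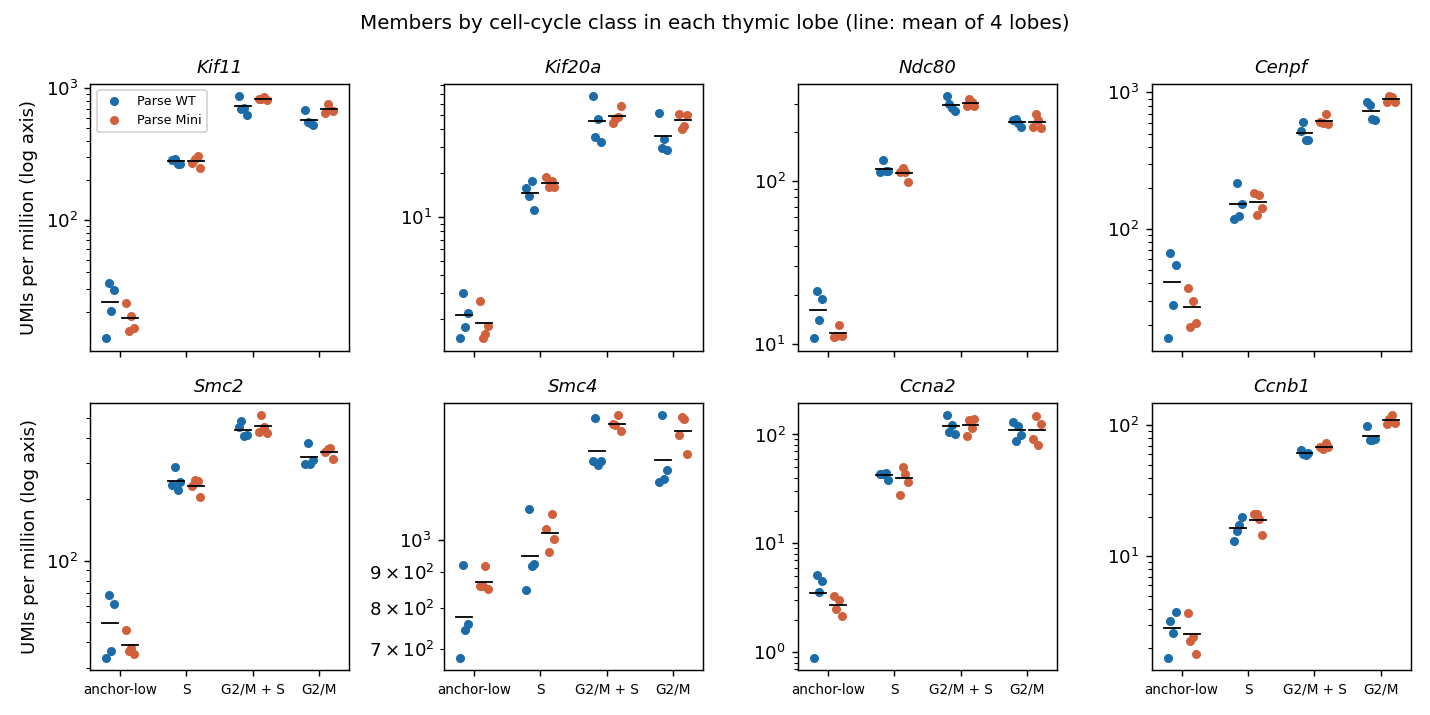
CPM on log axes for 8 members in anchor-low, S, G2/M + S and G2/M thymocytes, with a point for each of 4 WT (blue) and 4 Mini (orange) lobes and a line at their mean. Smc4 falls only to a mean of 777 CPM in WT anchor-low cells, whereas Ccnb1 falls from 83.2 to 2.82 CPM.

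Of the 10 kinesins, all 10 were higher in G2/M than in S cells in both kits, with log2 fold changes of 0.73 to 1.97 in WT and 0.89 to 2.13 in Mini. Kif11, the motor that pushes spindle poles apart, measured 680, 558, 550 and 524 CPM in G2/M cells of WT lobes 1 to 4 and 288, 293, 267 and 267 CPM in their S cells. In anchor-low cells it measured 12.6, 33.0, 20.4 and 29.2 CPM. The anchor-low, S and G2/M classes of Kif11 did not overlap, whereas its G2/M + S sums in WT (628 to 879 CPM) overlapped those of G2/M cells. The log2 fold change of G2/M against S was 1.12 ± 0.04 (SE, adjusted p = 4.62e-19) in WT and 1.40 ± 0.05 (adjusted p = 5.55e-37) in Mini. Kif15, which shares the work of spindle assembly with Kif11, changed least of the kinesins between G2/M and S (0.73 ± 0.04, adjusted p = 1.83e-15 in WT). It stood at 329, 309, 283 and 263 CPM in WT S cells and at 478, 456, 454 and 426 CPM in WT G2/M cells. Kif18b, a motor that shortens astral microtubules, changed most in WT, by 1.97 ± 0.09 (adjusted p = 1.22e-17). Kif18b rose from 26.1, 32.4, 33.5 and 27.9 CPM in S cells to 147, 95.3, 115 and 110 CPM in G2/M cells of lobes 1 to 4.

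Cenpe, the motor that carries chromosomes to the spindle equator, rose by 1.76 ± 0.05 (adjusted p = 4.85e-21) from S to G2/M cells in WT and by 1.94 ± 0.05 (adjusted p = 1.15e-44) in Mini. Its Mini G2/M sums were 857, 960, 950 and 932 CPM in lobes 1-A, 1-B, 2-A and 2-B, beside 281, 242, 270 and 229 CPM in S cells. Kif14 and Kif20b, both motors of cytokinesis, rose by 1.81 and 1.43 in WT, and Kif20a by 1.33. Kif2c, which takes microtubules off at wrongly attached kinetochores, rose by 1.76, and the chromosome-bound Kif4 by 1.46. Kif23, the motor of the central spindle, rose less against anchor-low cells (3.33 in WT) than any other kinesin. Its anchor-low sums of 28.7, 33.4, 32.4 and 31.3 CPM differed little between WT lobes and stood at 10.4% of its G2/M mean, where the median over the members was 4.12%.

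Of the 8 kinetochore and checkpoint genes, all 8 were higher in G2/M than in S cells in both kits. Cenpf, a large protein of the outer kinetochore, changed most of these, by 2.27 ± 0.07 (adjusted p = 4.85e-21) in WT and 2.58 ± 0.06 (adjusted p = 6.36e-48) in Mini. Its G2/M sums were 843, 811, 637 and 630 CPM in WT lobes 1 to 4 and its S sums 119, 216, 125 and 153 CPM. The other 7 lay between 1.02 for Ndc80 and 1.32 for Knl1 in WT. Ndc80, the subunit that grips microtubules, measured 238, 242, 229 and 216 CPM in WT G2/M cells and 113, 134, 116 and 115 CPM in S cells. Its partner Nuf2 rose by 1.18 in WT and 1.00 in Mini. The checkpoint kinases Bub1 and Ttk rose by 1.07 and 1.09 in WT, Bub1b by 1.06, and Sgo1, which guards centromeric cohesion, by 1.27.

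The 4 condensin genes had smaller changes between G2/M and S cells than the other role groups, with a median of 0.63 in WT and 0.76 in Mini. Smc2 rose by 0.48 ± 0.04 (adjusted p = 3.50e-11), Smc4 by 0.54 ± 0.03 (adjusted p = 2.48e-14), Ncapd2 by 0.72 ± 0.04 (adjusted p = 8.14e-15) and Ncapg by 0.84 ± 0.05 (adjusted p = 1.64e-13) in WT. Smc4 had the smallest change of all members against anchor-low cells, 0.84 ± 0.02 (adjusted p = 2.89e-16) in WT and 0.76 ± 0.04 (adjusted p = 1.80e-15) in Mini. Smc4 measured 681, 923, 746 and 759 CPM in WT anchor-low cells and 1209, 1501, 1217 and 1255 CPM in G2/M cells, so that its anchor-low mean was 60.0% of its G2/M mean. Ncapg, the regulatory subunit of condensin I, stood much lower outside the cycle, with 1.98, 7.41, 3.63 and 7.34 CPM in anchor-low cells and 172, 159, 156 and 136 CPM in G2/M cells. Its log2 fold change against anchor-low cells was 4.86 ± 0.16 (adjusted p = 1.31e-15). Ncapd2, another subunit of condensin I, stood at 181 CPM in anchor-low cells of WT lobe 4 and at 64.2 to 74.5 CPM in those of the other 3 WT lobes.

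Ccnb1 and Ccnb2, the B-type cyclins, rose more from S to G2/M than the A-type cyclin Ccna2. In WT the log2 fold changes were 2.29 ± 0.10 (adjusted p = 5.39e-18) for Ccnb1, 2.11 ± 0.10 (adjusted p = 1.13e-16) for Ccnb2 and 1.42 ± 0.07 (adjusted p = 9.77e-16) for Ccna2, and the differences between these genes were not tested. Ccnb1 measured 99.0, 77.8, 77.2 and 78.7 CPM in WT G2/M cells and 13.0, 15.7, 17.5 and 20.0 CPM in S cells. Ccna2 measured 131, 87.9, 120 and 97.9 CPM in G2/M cells and 43.4, 43.1, 44.3 and 38.2 CPM in S cells. Cdk1, the kinase both cyclins activate, rose by 1.30 ± 0.06 (adjusted p = 2.27e-16). Ccnf, an F-box protein that marks targets for destruction, rose by 1.34 in WT and 1.58 in Mini.

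Mki67 and Top2a, the enzyme that untangles DNA, rose by 1.12 ± 0.04 (adjusted p = 5.11e-20) and 1.15 ± 0.04 (adjusted p = 7.32e-19) from S to G2/M cells in WT. Of the remaining 21 members, Pif1, a DNA helicase, rose most in both kits, by 2.97 ± 0.12 (adjusted p = 3.21e-18) and 3.33 ± 0.16 (adjusted p = 4.90e-28). Pif1 measured 78.8, 66.5, 81.5 and 80.3 CPM in WT G2/M cells and 3.26, 10.3, 8.83 and 13.4 CPM in S cells. Cdc25c, the phosphatase that activates Cdk1, and Aspm, a spindle-pole protein, followed in WT with 2.41 and 2.39, and Parpbp and Aspm in Mini with 2.70 and 2.62. The smallest changes were 0.91 for Espl1, the separase that cuts cohesin, 1.199 for the kinase Aurkb and 1.27 for Incenp in WT, and 1.19 for Espl1, 1.42 for Anln and 1.46 for Incenp in Mini.

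**Figure D2:**
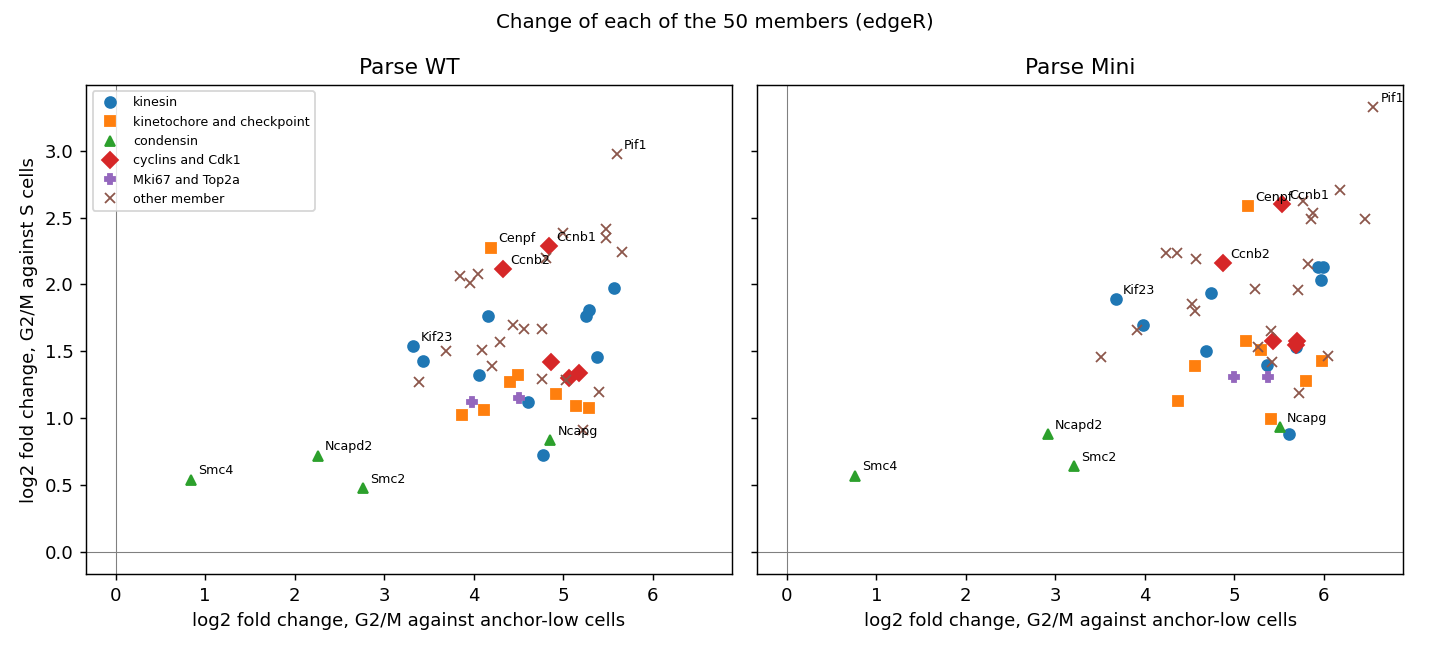
Log2 fold change of each of the 50 members in G2/M against anchor-low cells (horizontal) and against S cells (vertical) in WT (left) and Mini (right) lobes, with marks by role. Smc2 and Smc4 lie lowest, with Smc4 at 0.84 and 0.54 in WT, and Pif1 lies highest at 2.97 in WT.

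Against anchor-low cells, the largest changes among the 21 were 5.66 for Depdc1b, 5.60 for Pif1 and 5.48 for Cdc25c in WT, and 6.55 for Pif1, 6.46 for Cdc25c and 6.18 for Parpbp in Mini. The smallest were 3.39 for Incenp, 3.69 for Arhgap11a and 3.85 for the kinase Aurka in WT. In Mini they were 3.51 for Incenp, 3.91 for Arhgap11a and 4.24 for Plk1, the polo kinase of mitotic entry.

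The members were also compared between the G2/M class and cells past both cuts, where the counts with 4 WT lobes lie near the share of all genes and the counts are not read as a result about the members. In both kits Ccnb1, Cenpf and Pif1 were higher in every G2/M sum than in every G2/M + S sum, a pattern of 3 members in WT and 7 in Mini beside 6.01% and 8.93% of all genes. In both kits Bub1, Kif15, Ncapg, Ndc80, Nusap1 and Smc2 were higher in every G2/M + S sum than in every G2/M sum, a pattern of 7 members in WT and 16 in Mini beside 11.7% and 13.7% of all genes. Without WT lobe 1 the WT counts were 6 and 16, beside 11% and 18.1% of all genes. Kif15 measured 738, 647, 666 and 609 CPM in G2/M + S cells of WT lobes 1 to 4, above its 426 to 478 CPM in G2/M cells. Cenpf measured 524, 607, 446 and 450 CPM in G2/M + S cells, below its 630 to 843 CPM in G2/M cells. No doublet caller was run, and a G2/M cell joined to an S cell would also pass both cuts; the part of doublets in these sums was not tested.

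**Figure D3:**
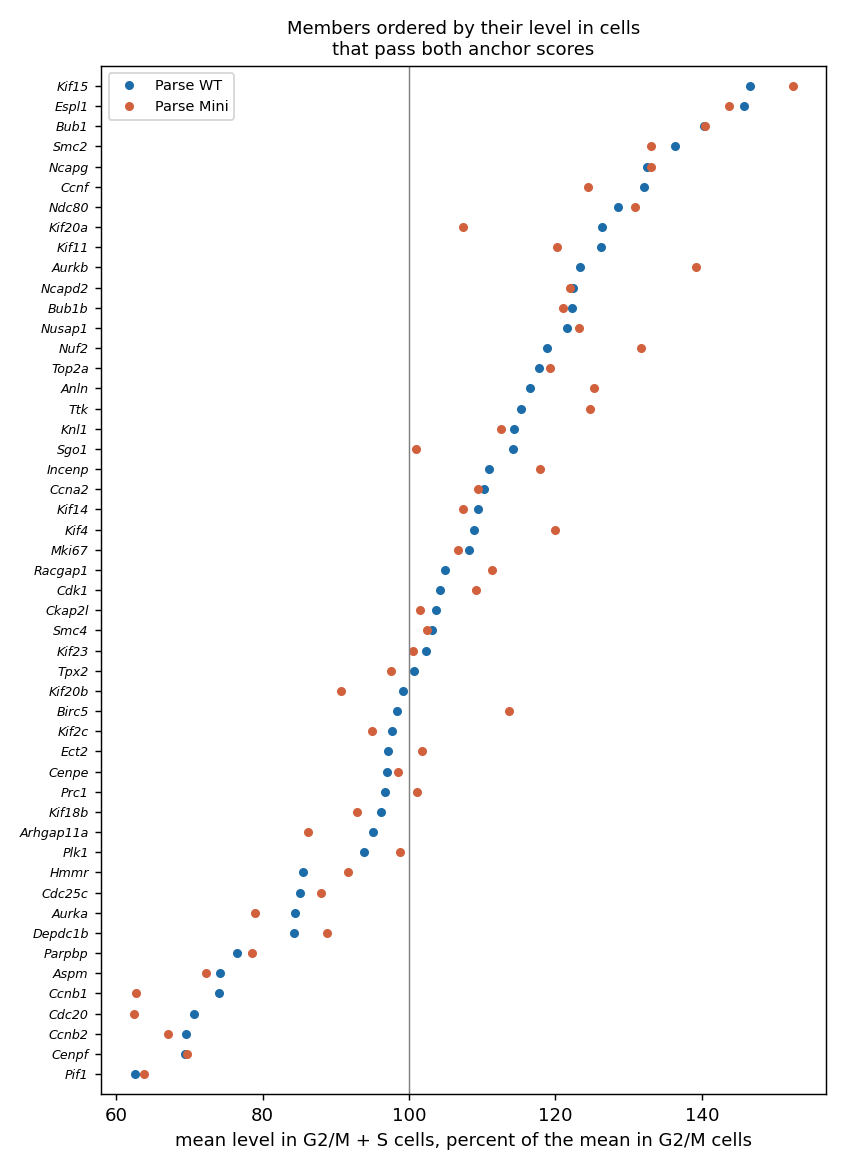
Mean level of each member in G2/M + S cells as a percent of its mean in G2/M cells, over 4 WT (blue) and 4 Mini (orange) lobes, ordered by WT. The values run from 62.5% to 147% in WT, with Pif1 lowest and Kif15 highest.

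A list of 91 other genes, of the same pathways or of other kinesins, was followed beside the members. Of the 88 tested in WT, 69 were higher and 5 lower in G2/M than in anchor-low cells, and of the 85 tested in Mini, 67 were higher and 2 lower. Over all genes tested, 23% were called higher and 21.1% lower against anchor-low cells in WT, and 20.9% and 17.8% in Mini. Against S cells the count fell to 43 higher and 13 lower of 87 in WT and to 37 and 14 of 85 in Mini, with a median log2 fold change of 0.14 and 0.19. There 19.4% of all genes were called higher and 19.8% lower in WT, and 16.5% and 17.4% in Mini. The counts of lower genes against S cells lie near or below these shares and are not read as a result about the list. Without WT lobe 1 the WT counts were 69 higher and 5 lower of 88 against anchor-low cells, and 46 higher and 12 lower of 87 against S cells. All 25 kinetochore genes of the list were higher against anchor-low cells in WT, and 11 were higher and 2 lower against S cells. In Mini 24 of the 25 were higher against anchor-low cells, and 11 were higher and 6 lower against S cells. The kinetochore genes lower against S cells are likewise not read as a result beside the shares of all genes. Cdc25b, a phosphatase of Cdk1, Fzr1, an activator of the anaphase-promoting complex, and Kif18a, a motor that damps chromosome movement, rose most from S to G2/M in both kits, with 2.27, 1.47 and 1.46 in WT. The transcription factor Mybl2 fell by 1.52 in WT and by 1.61 in Mini. Cdkn1a, an inhibitor of cyclin-dependent kinases, and Nek6 fell by 1.49 and 0.90 in WT, and Cdc25a and Pkmyt1 fell by 0.99 and 0.80 in Mini. Against anchor-low cells, E2f7, Foxm1 and Spc25 rose most in WT (4.87, 4.72 and 4.71), and Cenpm, Spc25 and Ska1 in Mini (6.09, 5.63 and 5.47). Mad1l1, a checkpoint protein, fell by 0.50 in WT and by 0.52 in Mini, Kif1b fell by 0.23 in WT and Kif5b by 0.27 in Mini, while Kif26b in WT (-0.39, adjusted p = 0.501) and Kif1b in Mini (-0.17, adjusted p = 0.136) did not pass the test.

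Outside the members, the genes most like Ccnb1 over the 32 sums of lobe and class were Ckap2 (Pearson's r = 0.994), Knstrn (0.992), Efcab11 (0.992), Nek2 (0.992) and Dlgap5 (0.991), among 9881 genes. Ckap2, Nek2 and Dlgap5 are G2/M anchors, which set the classes. These values describe sums that share lobes.

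Thymocyte stages were set by marker genes, without any member or anchor. DP-like cells carry Rag1, Rag2 and other markers of the double-positive stage. Their summed score of Cd4 and Cd8 passes a cut, so UMIs of both coreceptors were not required in a cell. DP-S-like cells meet the same rule and also carry genes induced by selection such as Cd69 and Tox. SP-CD4-like and SP-CD8-like cells have UMIs of only Cd4 or only Cd8, and a low score of the DP markers. Both classes pass a cut on the same list, Zbtb7b, Cd40lg, Il7r, S1pr1, Klf2 and Ccr7, which are the SP-CD4 markers other than Cd4. The SP-CD8 markers Runx3, Nkg7 and Itgae did not choose SP-CD8-like cells. A coreceptor missed in a cell can thus decide its class, and the part of such cells was not tested. DN-like cells carry Il2ra, Notch3 and others with few or no coreceptor UMIs. Coreceptor-low cells have few or no coreceptor UMIs and scores under the cuts of the DN-like and single-positive classes. The rule for coreceptor-low cells leaves free the selection markers and the DP markers other than Cd4, Cd8a and Cd8b1. In WT coreceptor-low cells carried the DP list, which includes the coreceptors, at 3021 to 4241 CPM. They carried the list of selection genes at 2511 to 5683 CPM, beside 4384 to 5205 CPM in DP-S-like cells, which were chosen by a cut on that list. Their erythroid list summed to 116 to 119 CPM in WT and 134 to 170 CPM in Mini, above the DP-like 77.6 to 90.4 CPM and 75.1 to 95.1 CPM. Their NK list summed to 23.4 to 35.0 CPM and 22.8 to 44.5 CPM, above the DP-like 11.9 to 21.5 CPM and 11.04 to 14.1 CPM. Lists of the remaining other lineages overlapped between these 2 classes. The part of such RNA in the results on coreceptor-low cells was not tested. The label of the DN-like class fits its markers only in part, since its DP list, at 4023 to 5432 CPM in WT lobes, was not far below the 7053 to 10194 CPM of DP-like cells. The class rules keep Cd4, Cd8a and Cd8b1 of this list low in DN-like cells and require DP-like cells to pass cuts on the list. The DN list summed to 2308 to 3014 CPM in DN-like cells, with 9 of 10 genes detected, against 107 to 128 CPM in DP-like cells. This contrast is set by the class rule, which places DN-like cells above and DP-like cells below a cut on the DN list, so it does not bear on the label. The erythroid list summed to 130 to 142 CPM in DN-like and 77.6 to 90.4 CPM in DP-like cells, and the monocyte and granulocyte list, which overlapped, to 14.8 to 36.4 CPM and 6.01 to 16.3 CPM. The plasma cell list summed to 60.9 to 97.9 CPM in DN-like and 28.2 to 40.8 CPM in DP-like cells of WT lobes, and the list of selection genes to 1505 to 1787 CPM and 1117 to 1394 CPM. In both kits the class rule holds DP-like cells, but not DN-like cells, under a cut on the selection list. In Mini lobes the NK list summed to 21.3 to 36.0 CPM in DN-like and 11.04 to 14.1 CPM in DP-like cells, the list of selection genes to 1539 to 2603 CPM and 1152 to 1404 CPM, the plasma cell list to 43.4 to 60.9 CPM and 34.3 to 40.3 CPM, the erythroid list to 128 to 181 CPM and 75.1 to 95.1 CPM, and the B cell list to 33.5 to 56.9 CPM and 78.8 to 90.7 CPM. In WT lobes the NK list, at 16.9 to 47.5 CPM and 11.9 to 21.5 CPM, overlapped. The list for thymic epithelium summed to 13.0 to 26.7 CPM and 2.54 to 3.25 CPM in WT and to 15.2 to 48.0 CPM and 2.35 to 3.98 CPM in Mini, with 1 of its 5 genes detected in DN-like cells and Foxn1, Psmb11, Krt5 and Krt8 at 0. In DN-like cells of WT lobes, 8 of 10 erythroid genes were detected, with Klf1 and Epb42 at 0, and 6 of 9 monocyte and granulocyte genes, with Ly6g, Elane and Camp at 0. In Mini lobes 2 of 10 and 2 of 9 were detected, and Klf1, Ly6g and Elane were among those at 0. The part of such RNA in the results on DN-like cells was not tested.

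The members were highest in DP-like and coreceptor-low cells and lower in DN-like, DP-S-like and single-positive cells. They took 0.705% ± 0.041 of UMIs in DP-like cells and 0.677% ± 0.065 in coreceptor-low cells of the WT kit (SD, n = 4), which overlapped. DN-like cells held 0.401% ± 0.039 and DP-S-like cells 0.387% ± 0.049, which overlapped as well. SP-CD4-like cells held 0.252% ± 0.069 and SP-CD8-like cells 0.428% ± 0.190 in WT, and 0.337% ± 0.099 and 0.295% ± 0.097 in Mini, from 42 to 140 WT and 21 to 80 Mini cells per lobe. In WT the spread between lobes was widest in SP-CD8-like cells, with 0.247%, 0.641%, 0.289% and 0.534% in WT lobes 1 to 4, of which the highest overlapped coreceptor-low cells (0.589% to 0.739%).

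The mean share of cells past the G2/M cut was also highest in DP-like and coreceptor-low cells. Depth differed between stages. In WT the median UMIs outside ribosomal RNA were 3539 in DP-like, 2554 in coreceptor-low, 4139 in DP-S-like and 4181 in DN-like cells. They were 2434 in SP-CD4-like and 2636 in SP-CD8-like cells. In Mini the first 4 of these classes stood at 2839, 2359, 3642 and 3934. The part of depth in the shares of cells past a cut was not tested. It was 16.1% ± 2.2 in DP-like, 14.5% ± 2.0 in coreceptor-low, 5.14% ± 0.92 in DP-S-like and 5.15% ± 1.41 in DN-like cells of WT lobes (SD, n = 4), and 7.68% ± 5.37 in SP-CD8-like and 3.53% ± 2.49 in SP-CD4-like cells. SP-CD8-like cells of WT lobe 2 (11.9%, 7 of 59 cells) lay within the range of coreceptor-low lobes (11.6% to 16.2%). In Mini lobes it was 15.9% ± 3.9 in DP-like, 16.5% ± 5.5 in coreceptor-low, 7.99% ± 1.29 in DP-S-like and 9.24% ± 3.35 in DN-like cells, and DN-like lobes (4.76% to 12.5%) overlapped coreceptor-low lobes (10.7% to 24.0%). SP-CD4-like and SP-CD8-like cells of Mini lobes stood at 3.70% ± 1.33 and 2.10% ± 2.79. The S class held 18.5% ± 3.9 of DN-like, 15.1% ± 3.3 of coreceptor-low and 9.83% ± 2.83 of DP-like cells in WT, and 14.0% ± 3.8, 14.9% ± 4.3 and 8.53% ± 2.57 in Mini. Its share was higher in DN-like than in DP-like cells in all lobes but Mini lobe 1-A, which held 4 of 40 DN-like cells and 12.1% of DP-like cells in the S class. In sums over a stage, fewer dividing cells and less RNA per dividing cell cannot be told apart. Past the G2/M cut stood 23 DN-like cells in WT and 18 in Mini, too few to compare by lobe.

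**Figure D4:**
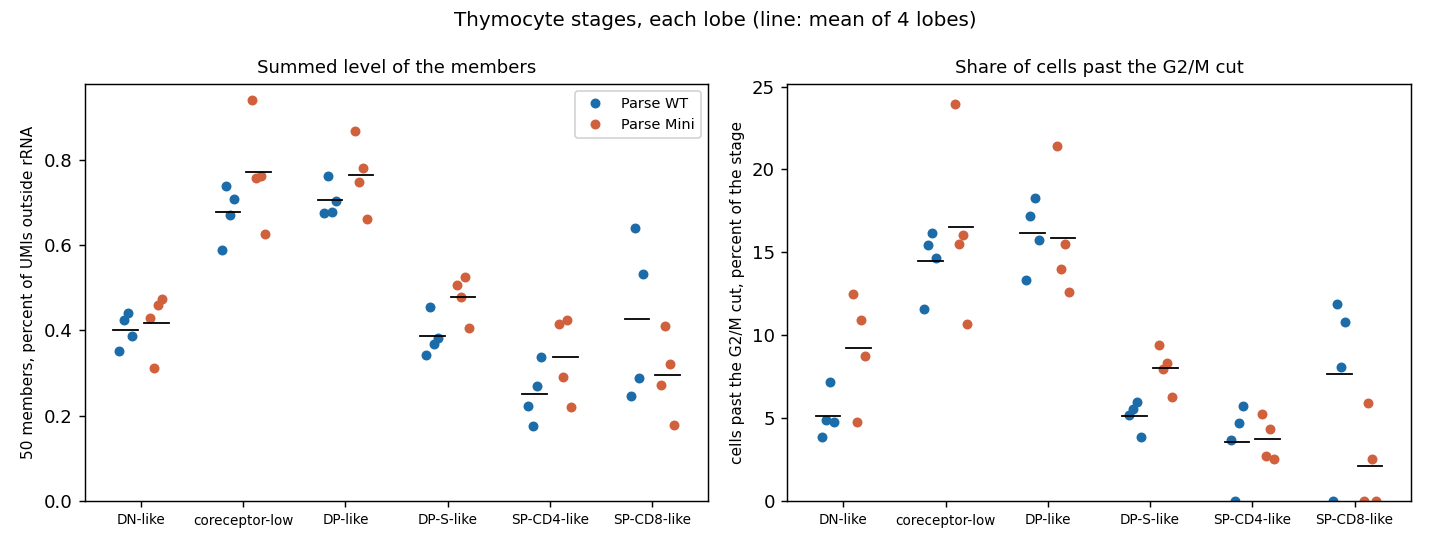
Left, the members' share of UMIs outside ribosomal RNA in each stage; right, the share of cells of the stage past the G2/M cut, both with a point for each of 4 WT (blue) and 4 Mini (orange) lobes and a line at the mean. DP-like lobes lie between 0.676% and 0.763% in WT and DN-like lobes between 0.352% and 0.440%.

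Between DN-like and DP-like cells of the WT kit, 49 of the 50 members were lower in DN-like cells and none was higher, where 17.4% of 12047 genes were called lower and 17.9% higher. The median log2 fold change was -1.08 for the members and -0.04 over all genes tested. Without WT lobe 1 the count was 48 and the median -1.06. The member that did not pass the test was Kif20a (-0.39 ± 0.29, adjusted p = 0.332). Kif20a had the lowest mean level of the members in whole WT lobes (13.5 CPM). The DN-like sum of WT lobe 1 holds 52 cells, so its values there rest on few UMIs. It measured 11.9, 19.3, 15.0 and 7.99 CPM in DN-like cells and 20.6, 14.9, 16.6 and 12.3 CPM in DP-like cells. Mki67 measured 314, 493, 469 and 452 CPM in DN-like and 861, 1012, 762 and 893 CPM in DP-like cells, a change of -1.12 ± 0.09 (adjusted p = 3.20e-10). Kif11 measured 97.9, 135, 165 and 134 CPM in DN-like and 261, 264, 254 and 235 CPM in DP-like cells (-0.999 ± 0.107, adjusted p = 5.65e-08). For both genes the lobes of the 2 stages did not overlap. Ccnb1 fell by 1.12 (adjusted p = 0.000651), from 27.0, 28.2, 28.7 and 29.2 CPM in DP-like to 11.9, 16.9, 17.1 and 11.98 CPM in DN-like cells. Smc4 changed least after Kif20a, by -0.47 ± 0.07 (adjusted p = 1.91e-05).

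Of the other members, Racgap1, partner of Kif23 in the central spindle, had the largest difference (-1.66 ± 0.17, adjusted p = 2.34e-08), with 17.8, 29.0, 29.99 and 28.0 CPM in DN-like and 77.1, 79.8, 87.4 and 75.9 CPM in DP-like cells. Depdc1b and Pif1 followed with -1.60 and -1.51, and Cdc20, Incenp and Arhgap11a had the smallest differences, -0.69, -0.71 and -0.72. Of the 87 pathway genes tested in WT, 45 were lower and 2 were higher in DN-like cells, beside 17.4% and 17.9% of all genes. Of the 88 tested without WT lobe 1, 43 were lower and 2 higher. The 2 were Cdkn1a (4.16 ± 0.37, adjusted p = 2.91e-09) and Nek6 (2.29 ± 0.40, adjusted p = 6.30e-05), while Cenpu (0.31, adjusted p = 0.495) did not pass the test. Mad1l1, E2f7 and Spc25 fell most, by 1.79, 1.62 and 1.52.

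In the Mini kit only 2 of the 4 lobes, 2-A and 2-B, held at least 50 DN-like cells, and their names do not settle whether they are lobes of the same mouse. There 24 of 50 members were lower in DN-like cells and none was higher, beside 8.72% of 12081 genes called lower and 8.71% called higher, with a median log2 fold change of -0.77. All 8 kinetochore and checkpoint genes were among the 24, with 5 of 10 kinesins, 2 of 4 condensins and 1 of the 5 genes of the cyclins and Cdk1. Hmmr, Pif1 and Cdc25c had the largest differences among the other members (-1.79, -1.33 and -1.28), of which Hmmr passed the test (adjusted p = 0.000248) and the others did not (adjusted p = 0.154 and 0.107). The smallest were -0.25 for Parpbp, -0.28 for Aurka and -0.36 for Espl1, none of which passed (adjusted p = 0.713, 0.769 and 0.562). Of 87 pathway genes, 22 were lower and 1 higher, Cdkn1a (3.50 ± 0.92, adjusted p = 0.00775). Nsl1 fell by 2.20 (adjusted p = 0.0278), while Haspin (-2.34, adjusted p = 0.218), Cenpw (-2.03, adjusted p = 0.323), Nek6 (2.02, adjusted p = 0.120) and Zwint (0.32, adjusted p = 0.402) did not pass. With DESeq2 6 members were called and with no upper UMI limit 39. With all 4 lobes, which hold 40 to 57 DN-like cells each, 46 of 50 were lower and the median was -1.12, a fit chosen after seeing the data.

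Within the G2/M class, stages were compared over the lobes with at least 20 cells of both, which leaves WT lobe 1 out. The mean of DP-S-like cells lay below that of DP-like cells for 39 of the 50 members in WT and 48 in Mini, beside 46.9% of 9640 and 49.1% of 9666 genes. The mean of coreceptor-low cells in WT lay below that of DP-like cells for 20 members, beside 47.4% of 9757 genes. Ccnb1 stood at 78.8 ± 0.98 CPM in DP-like, 59.5 ± 22.3 CPM in DP-S-like and 96.4 ± 9.1 CPM in coreceptor-low cells of the WT kit (SD, n = 3 each). In Mini it stood at 114 ± 10.0 CPM in DP-like and 95.1 ± 7.1 CPM in DP-S-like cells (n = 4 each). Kif11 stood at 549 ± 21 and 485 ± 45 CPM in DP-like and DP-S-like cells of WT, and Smc4 at 1337 ± 162 and 1280 ± 123 CPM, which overlapped. No test was run on these values.

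The other 16 tissue samples held 66445 scored cells, of which 3380 passed the G2/M cut. The share per sample ran from 0.600% in CVS_C_3 to 17.4% in CVS_C_1, with a median of 5.04%. The members' share of UMIs ran alongside, from 0.0755% in CVS_C_3 to 0.671% in CVS_C_1, with a median of 0.309%. The highest sample lay above the 4 lobes of the same kit (0.523% to 0.668%) and within the range of the Mini lobes. Mki67 ran from 64.6 to 1103 CPM with a median of 499, and Ccnb1 from 1.54 to 41.7 CPM with a median of 12.2. Smc4 varied less, from 196 to 486 CPM with a median of 336. In every one of the 16 samples Smc4 lay below the lowest thymic lobe (806 CPM). Bub1b, Ect2, Kif11 and Ndc80 likewise lay in all 16 samples below their own lowest thymic lobe. The share of all genes with this order was not counted, so it is not read as a trait of Smc4. The names of these samples begin with CVS_C, CVS_S or YD_C, and no test was run, since the labels do not say what these stand for.

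Cells of the other samples were assigned to the lineage whose markers led. Past the G2/M cut were 1651 erythroid, 730 B, 305 monocyte or granulocyte and 244 T cells, and at most 27 of any other lineage. In samples with at least 20 such cells, the members took a median of 2.25% of UMIs in erythroid cells (14 samples, 1.64% to 2.80%), 1.66% in B cells (12 samples, 1.12% to 1.88%), 1.75% in T cells (5 samples, 1.58% to 2.18%) and 1.58% in monocytes and granulocytes (6 samples, 1.31% to 1.77%). Thymic DP-like cells past the same cut held 1.55% to 1.98% in WT and 1.82% to 1.97% in Mini lobes. Anchor-low B cells held a median of 0.0589%, and only 98 erythroid cells were anchor-low in all samples.

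The make-up of the members is given here as each gene's percent of the members' summed level in cells past the G2/M cut. Mki67 took a median of 19.7% in erythroid cells (14.1% to 23.0%) and 13.8% in B cells (10.0% to 17.7%), beside 12.8% in thymic DP-like cells of the WT kit (11.4% to 13.3%). Birc5, survivin of the chromosomal passenger complex, took 1.18% in erythroid cells (0.898% to 1.42%) and 0.529% in B cells (0.289% to 0.966%). Smc4 took 8.16% in WT thymic DP-like cells (6.61% to 9.33%) and 4.57% in erythroid cells (3.85% to 5.05%), which did not overlap, and 5.65% in monocytes and granulocytes (4.37% to 8.39%), which overlapped the thymic range. Ttk took 0.689% in WT thymic DP-like cells (0.626% to 0.721%) and 1.67% in B cells (1.05% to 1.87%), which did not overlap either. In erythroid cells Ttk took 0.871% (0.689% to 1.06%), which overlapped the thymic range. Kif20b, Ect2, Ndc80 and Prc1 also did not overlap between WT thymic DP-like and erythroid cells. How many members or genes separate in this way was not counted, so it is not read as a trait of Smc4 or Ttk. The shares are parts of 1 total, so a higher share of Mki67 lowers those of other members. Plk1, a member with few UMIs (11.4 to 15.1 CPM in whole WT lobes), took 0.189% to 0.293% in WT and 0.198% to 0.259% in Mini thymic DP-like cells. The values of the 4 other lineages began at 0.305%. The share of all genes with such an order was not counted, so it is not read as a trait of Plk1. Of the other samples, 11 held at least 20 cells past the cut of both the erythroid and the B lineage, and in all 11 the members' summed level and the shares of Mki67 and Birc5 were higher in erythroid than in B cells. How many of the remaining members or of all genes hold this order was not counted. The mix of cycle classes also differed, since 1547 of the 1651 erythroid cells past the G2/M cut were also past the S cut, against 376 of the 730 B cells, 109 of the 244 T cells and 79 of the 305 monocytes and granulocytes. In thymocytes of WT lobes, 1887 cells were past both cuts and 2296 past the G2/M cut alone. The part of this mix in the values was not tested. These samples come from tissues and mice that the labels do not tell apart, so between them and the thymic lobes lineage, tissue and sample cannot be told apart, and no test was run.

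**Figure D5:**
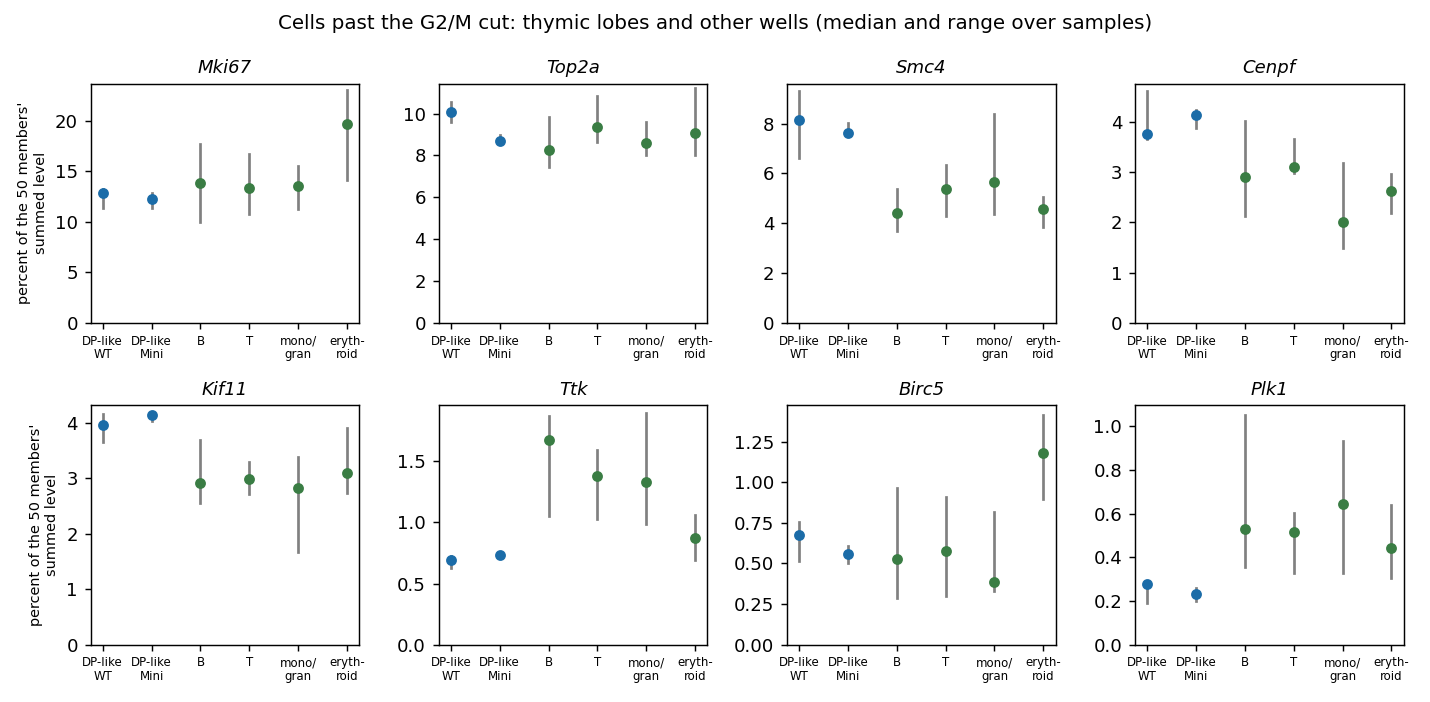
Each of 8 members as a percent of the 50 members' summed level in cells past the G2/M cut, with the median (point) and range (line) over 4 WT and 4 Mini thymic lobes (blue) and over samples of the other wells (green). Mki67 has its highest median, 19.7%, in erythroid cells, and Smc4 its highest, 8.16%, in WT thymic DP-like cells.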

How the data were processed

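The authors deposited, for each Parse kit, a matrix of UMI counts of cells by genes with a cell table and a gene list. Reads were processed with split-pipe on mm10 (version not given in the sources used here), and the study kept cells of 500 to 25000 UMIs with at most 15% mitochondrial UMIs. The 10x data were not analysed here. Tissue samples were read from the cell table. The same limits were applied, and cells with at least 1000 UMIs outside ribosomal RNA were scored. The study also removed cells that a program called doublets, which was not done here. Doublets can therefore stand in any cycle, stage or lineage class, and their part in the values was not tested. Cells of other lineages by marker score (966 in WT, 298 in Mini) were left out. Classes were set by score cuts chosen on histograms of scores that exclude the members, with no clustering. Counts were summed per lobe and class, and classes with at least 50 cells in a lobe were compared within each kit by edgeR 4.0.16 (TMM, quasi-likelihood, filterByExpr, lobe as block, Benjamini-Hochberg over all genes, threshold 0.05) in R 4.3.3. SEs are the log2 fold change over the root of F. On simulated counts, 96% of genes changed by a log2 of 1 were recovered for G2/M against S cells in WT (11595 genes) and 92% in Mini (9993), 90% and 82% for G2/M against anchor-low cells (13014 and 11341), and 66.7% and 28.3% for DN-like against DP-like cells (12316 and 12491). The simulation used a fixed spread that was not estimated from these data and changed only genes with enough counts. A call was counted whatever its sign, so these percents describe that setting only. Lobes are paired because each gives both classes of a comparison. Named were all kinesin, kinetochore, condensin and cyclin members, and of other members and of the pathway list the 3 largest and 3 smallest changes in each fit. The members and lists were chosen with earlier results of these data known. Alternatives were RLE size factors, DESeq2 1.42.0, no filter, no block, each lobe left out, no upper UMI limit, thinning to 1000 UMIs, cuts moved 1.5 times, DP-like cells only and a 20-cell minimum, the last 2 chosen after seeing the data. UMIs are counted molecules, and levels rest on the UMI totals given per lobe.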

Additional observations from a re-analysis of the deposited data

Results flagged for a closer look

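Of 158 sets of 4 lobes examined (whole-lobe levels of the members, their summed share by class, and shares of cells by class), 5 held a lobe far from the other 3 by Dixon's ratio for 4 values, a rule by which chance flags about 1 in 20 sets. The share of thymocytes in the G2/M class was 4.73% in WT lobe 1 and 7.25% to 7.64% in the other WT lobes. The share of unclassed cells past the G2/M cut was 7.99% in WT lobe 3 and 5.04% to 5.25% in the others. Ckap2l stood at 42.0 CPM in WT lobe 1 and at 55.2 to 57.4 CPM in the others, and Parpbp at 31.2 CPM in WT lobe 1 and 36.1 to 36.6 CPM in the others. Bub1 stood at 53.8 CPM in WT lobe 2 and at 48.0 to 48.9 CPM in the others.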

How the results depend on the processing

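All 50 members stayed higher in G2/M than in anchor-low and than in S cells under each of the 13 alternatives in each kit, and the members' median log2 fold change ran from 4.30 to 4.83 and from 1.195 to 1.62 in WT and from 5.08 to 5.497 and from 1.33 to 1.92 in Mini. Between DN-like and DP-like cells, 46 to 49 members were called in WT under 10 alternatives, all lower in DN-like cells; leaving out each WT lobe gave 46 to 48. In Mini, with 24 called, the count was 6 with DESeq2, 39 without the upper UMI limit and 46 with a minimum of 20 cells; the cause of the first 2 was not tested, and the last uses 4 lobes in place of 2. Without the replicate block (the lobe as a pairing of classes), the counts were 50 in the 4 comparisons of cycle classes, 47 in WT and 26 in Mini for DN-like against DP-like cells. The number of all genes called moved by over 1.5 times with DESeq2, thinned cells, no block or the 20-cell minimum in some comparisons, at the lowest from 2238 higher and 2289 lower to as few as 729 and 642 for G2/M against S in WT, from 1656 and 1744 to 499 and 414 in Mini, from 2982 and 2742 to 1355 and 1255 for G2/M against anchor-low cells in WT, from 2362 and 2009 to 935 and 680 in Mini, and from 1052 and 1053 to 615 and 421 for DN-like against DP-like cells in Mini, where the 20-cell minimum gave 1487 and 1641. Thinned cells and the G2/M class alone could not be fitted for DN-like against DP-like cells, since fewer than 2 lobes kept 50 cells of each class; in Mini the same holds for leaving out lobe 2-A or 2-B, while lobes 1-A and 1-B are not in that fit.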
